A study of Saccharomyces cerevisiae with 4 samples.

Results

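The genes of the yeast proteasome and of the factors that assemble, regulate or assist it were examined in Saccharomyces cerevisiae strain S288c under nitrogen deficiency. Members were picked by systematic name and not by their expression change, but with earlier results of these data known. Proteasome genes in rows where the replicate values disagree were avoided. The members comprise 31 of the 6301 open reading frames (ORFs) in the table: 11 subunits of the 20S core particle, 13 subunits of the 19S regulatory particle, 6 associated factors and the transcription factor gene RPN4. In the nitrogen-rich condition, S288c was grown at 30°C and 160 rpm in synthetic complete medium (SC) to an OD600 of 0.4. In the nitrogen-poor condition, such cells were moved to an equal volume of minimal medium (MM) with 0.025% ammonium sulfate and no adenine or amino acids, and were held there for 12 h. No strain carried a further allele or received another agent. Nitrogen supply, the loss of amino acids and adenine, and the 12 h of further culture differed together between the media and cannot be told apart. Each of 4 two-colour arrays of spotted ORFs was hybridized with cDNA of both media, primed with oligo-dT, with 2 arrays in each dye orientation and replicate numbers 1 and 2.

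The proteasome degrades proteins that carry ubiquitin chains. Its barrel-shaped core holds the proteolytic sites inside stacked rings of alpha and beta subunits, and the regulatory particle at the end of the barrel recognizes, unfolds and feeds in the substrate. The base of the regulatory particle holds a ring of ATPases (Rpt proteins), and its lid removes ubiquitin. In yeast, proteasome genes share an activator, Rpn4, which is itself rapidly destroyed by the proteasome. Nitrogen-starved yeast recycles amino acids both through the proteasome and through the vacuole by autophagy.

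Values are log2 ratios of MM over SC, so that a gene above 0 was more abundantly expressed in nitrogen-poor medium. This direction was not stated with the values, and the array titles and channel annotations disagree on the dyes. It was taken because the mean of the deposited values had the sign that the text of the study gives for 5 of 5 genes. Of these, 4 lie among the disagreeing rows described next, and with the opposite direction every sign below would turn. The arrays held values for 4122 to 5941 ORFs, with 5.71% and 7.25% of ORFs blank on the arrays of replicate 1 and 30.3% and 34.6% on those of replicate 2. In the avoided rows, YKL054C to YMR185W and YOR046C to YPL023C (1549 ORFs) the replicates disagreed, with r = 0.042 between replicate means over 771 genes, against 0.959 over the 2994 other genes with values on all 4 arrays (correlations across genes, which are not independent replicates). None of the 31 members lies in these rows. The subunit genes PRE8, PRE10, PUP1, RPT1, RPT4, RPT5, RPN8 and RPN13 do lie there and were not used, and SEM1, the remaining lid subunit, was blank on every array.

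Of the 31 members, 25 had values on all 4 arrays and entered the test, 4 were measured on the 2 arrays of replicate 1 only, 1 on a single array, and 1 (PRE5) on none. The test was limma on replicate means (n = 2), each averaged over its dye swap, fitted over 3765 genes. A gene was called at a Benjamini-Hochberg adjusted p at or under 0.05. Each SD below is between these 2 means, so it leaves out the difference between dye orientations.

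Proteasome genes changed little between the media. Mean log2 ratios of the 25 tested members lay between -0.69 and 0.68, and 0 of them reached a 2-fold change, against 15.3% of the 2994 genes outside the disagreeing rows. The median size of the change, regardless of direction, was 0.19 for the members and 0.39 for those 2994 genes. RPN4 was called higher in MM, the base subunit genes RPN1 and RPN2 were called lower, and 22 members were not called. In the same fit 16.5% of all tested genes were called higher and 17.0% lower, or 19.9% and 20.4% of the genes outside the disagreeing rows. The 3 calls among members make 12.0%. The 95% intervals of single members (without adjustment for the number of genes) reached 0.28 to 0.43 to either side of their means. The smallest change called in this fit, over all genes, was 0.42.

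The number of calls depended on which genes shaped the error estimate. With the disagreeing rows left out of the fit, limma tested every gene against 1 common variance and called 10 of the 25 members, 2 higher (RPN4 and UMP1) and 8 lower (RPN1, RPN2, RPN10, RPN5, RPN11, RPN7, RPT2 and UBP6). In that fit 30.8% of genes were called higher and 33.3% lower. The members' share of 40.0% was again below that of all genes in the fit, 64.1%.

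**Figure D1:**
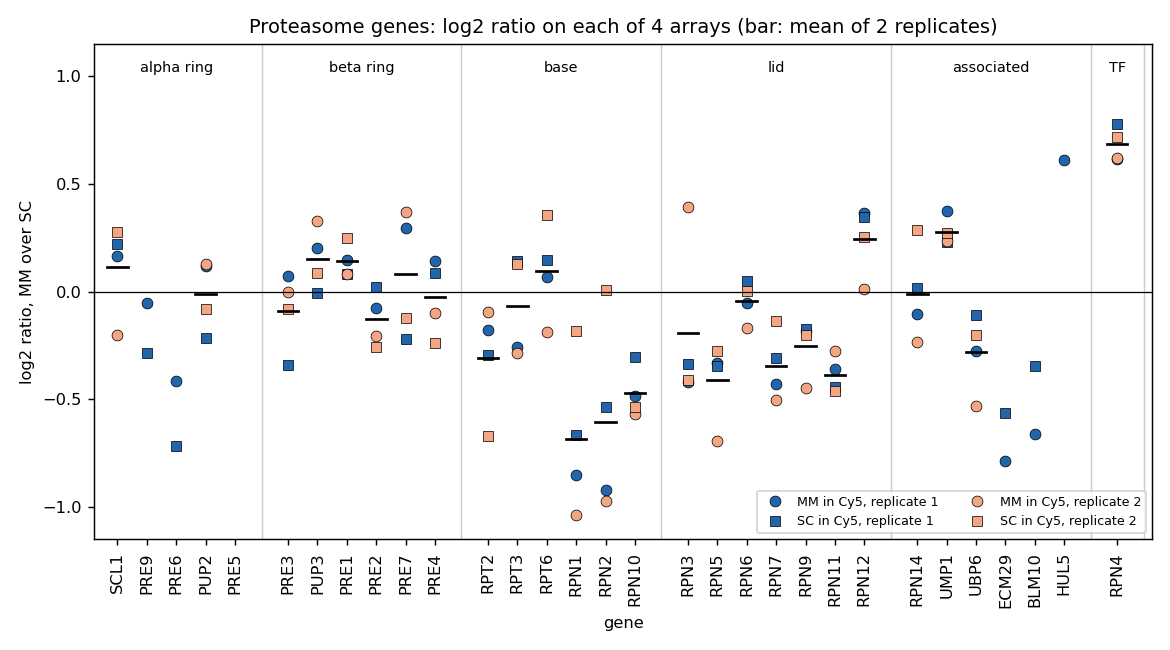
Log2 ratio of MM over SC (vertical axis) of each member (horizontal axis, by group; TF is the transcription factor gene RPN4) on each array, with circles for MM in Cy5, squares for SC in Cy5, blue for replicate 1 and orange for replicate 2. Black bars are means of 2 replicates, drawn for genes with values on all 4 arrays. All 4 values of RPN4 lie between 0.61 and 0.78, above those of every other member measured on 4 arrays, while RPN1 and RPN2 reach the lowest values.

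RPN4 (YDL020C) encodes the zinc-finger activator of proteasome genes. In replicate 1 its log2 ratio was 0.61 when MM was in Cy5 and 0.78 in the swapped array, and in replicate 2 it was 0.62 and 0.72. All 4 arrays were thus above 0 and lay close together. The mean was 0.68 ± 0.017 (SD, n = 2), a 1.61-fold higher level in MM (95% interval of the log2 ratio 0.40 to 0.97, limma adjusted p 0.0234), and RPN4 was the highest of the 25 tested members. It lay at the 86.7th percentile of all 3765 genes. Without any 1 array its mean stayed between 0.64 and 0.72, and it was still called except without MM in Cy5 of replicate 2 (limma adjusted p 0.0609). Over 11 alternative settings RPN4 was called in 9, with limma adjusted p between 8.53e-08 and 0.192.

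The 8 tested core particle genes, which encode the proteolytic chamber, were centred near 0. Untested PRE6 and PRE9 lay below 0 on the 2 arrays that measured them. The 8 tested genes had means between -0.13 and 0.15, with a median of 0.035 (0.068 in replicate 1 and 0.031 in replicate 2). In either fit limma called 0 of the 8. Before adjustment, too, 0 of the 8 passed the threshold. Of the alpha ring, whose subunits gate the entry to the chamber, SCL1 (YGL011C, the alpha1 subunit) was highest. It was at 0.17 and 0.22 in replicate 1 (MM in Cy5, then SC in Cy5) and at -0.20 and 0.28 in replicate 2, so that 1 array went against the other 3. Its mean was 0.12 ± 0.11 (SD, n = 2, limma adjusted p 0.419). PUP2 (YGR253C, alpha5) was at -0.011 ± 0.050.

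In the beta ring, PUP3 (YER094C, beta3) was highest. It was at 0.20 and -0.0053 in replicate 1 and at 0.33 and 0.084 in replicate 2. The arrays with MM in Cy5 were the higher ones, and the mean was 0.15 ± 0.076 (SD, n = 2, limma adjusted p 0.296). PRE1 (YER012W, beta4) was at 0.14 ± 0.037 and was the only core gene to keep its sign throughout the 4 arrays. The genes of 2 catalytic subunits lay slightly below 0: PRE2 (YPR103W), which carries the chymotrypsin-like activity, at -0.13 ± 0.14, and PRE3 (YJL001W), with the caspase-like activity, at -0.088 ± 0.064. PRE7 (YBL041W, beta6) was at 0.080 ± 0.060 and PRE4 (YFR050C, beta7) at -0.026 ± 0.20, where the SD exceeded the mean. The 95% intervals of the 8 core genes ran from -0.46 at the lowest to 0.45 at the highest bound.

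The regulatory particle genes lay lower. Of 13, 11 had a mean below 0, where 1546 of the 2994 genes outside the disagreeing rows did. The median of the 13 was -0.31 (-0.34 in replicate 1 and -0.33 in replicate 2), and 2 were called lower and 0 higher. These 2 of 13 are no larger a share than the 17.0% of all genes, or the 20.4% outside the disagreeing rows, called lower in the same fit. With those rows left out of the fit, 7 of the 13 were called lower, beside 33.3% of genes, so this share depended on the fit. In the base, RPN1 (YHR027C) and RPN2 (YIL075C), which encode its large scaffold subunits, were lowest of all tested members. RPN1 was at -0.85 and -0.67 in replicate 1 (MM in Cy5, then SC in Cy5) and at -1.04 and -0.18 in replicate 2. All 4 arrays were below 0, but SC in Cy5 of replicate 2 stood well above the other 3. The mean of RPN1 was -0.69 ± 0.10 (SD, n = 2), a 1.61-fold higher level in SC (limma adjusted p 0.0267). Without MM in Cy5 of replicate 2 it was at -0.47 and was not called (limma adjusted p 0.205). It was called in 9 of 11 alternative settings (7.74e-08 to 0.227).

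RPN2 was at -0.92 and -0.54 in replicate 1 and at -0.97 and 0.0078 in replicate 2. Its last value was thus at 0 while the other 3 were clearly below. The mean was -0.61 ± 0.17 (SD, n = 2), a 1.52-fold higher level in SC (limma adjusted p 0.0408). The call of RPN2 was lost when each array was centred on its median (limma adjusted p 0.0509), under quantile normalization (0.0679), and without any 1 array other than SC in Cy5 of replicate 2 (0.0528 to 0.347), where its mean was between -0.70 and -0.36.

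RPN10 (YHR200W), a ubiquitin receptor, was at -0.49 and -0.30 in replicate 1 and at -0.57 and -0.53 in replicate 2. All 4 values were below 0 with little spread, and its mean of -0.47 ± 0.11 (SD, n = 2) lay just outside the threshold (limma adjusted p 0.0501). It was called when arrays were centred on their medians (0.0457 by limma) or quantile normalized (0.0466), and in 6 of 11 settings in all (0.000258 to 0.255). Of the ATPase genes, RPT2 (YDL007W), whose product opens the gate of the core, was at -0.31 ± 0.10. RPT3 (YDR394W) was at -0.068 ± 0.016 and RPT6 (YGL048C) at 0.097 ± 0.015, but their single arrays spread more widely. RPT3 was at -0.26 and 0.14 in replicate 1 (MM in Cy5, then SC in Cy5) and at -0.29 and 0.13 in replicate 2. RPT6 was at 0.067 and 0.15, and at -0.19 and 0.36.

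Of 7 lid genes, 6 had a mean below 0 and 5 had the same sign on all 4 arrays, but limma called 0. Before adjustment 3 passed the threshold. Of the genes outside the disagreeing rows 67.2% kept their sign on all 4 arrays and 56.4% passed before adjustment, so the lid counts were close to or below those of other genes. RPN5 (YDL147W), which encodes a scaffold subunit, had the lowest mean of the lid genes. It was at -0.33 and -0.34 in replicate 1 (MM in Cy5, then SC in Cy5) and at -0.69 and -0.28 in replicate 2, with MM in Cy5 of replicate 2 below the other 3. Its mean was -0.41 ± 0.10 (SD, n = 2, limma adjusted p 0.0625). RPN11 (YFR004W), the metalloprotease that removes ubiquitin from substrates, was at -0.39 ± 0.024 and RPN7 (YPR108W) at -0.34 ± 0.033, with limma adjusted p of 0.0594 and 0.0735.

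Other lid genes differed from these in size or direction. RPN9 (YDR427W) was at -0.25 ± 0.10 and RPN6 (YDL097C) at -0.041 ± 0.057. RPN12 (YFR052W) was the 1 lid gene above 0, at 0.24 ± 0.16, with 4 of 4 arrays above 0 and a limma adjusted p of 0.183. RPN3 (YER021W) had the largest difference between replicates of any member. It was at -0.42 and -0.34 in replicate 1 and at 0.40 and -0.41 in replicate 2, so that MM in Cy5 of replicate 2 alone was above 0. Its mean was -0.19 ± 0.26 (SD, n = 2), and -0.39 without that array.

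**Figure D2:**
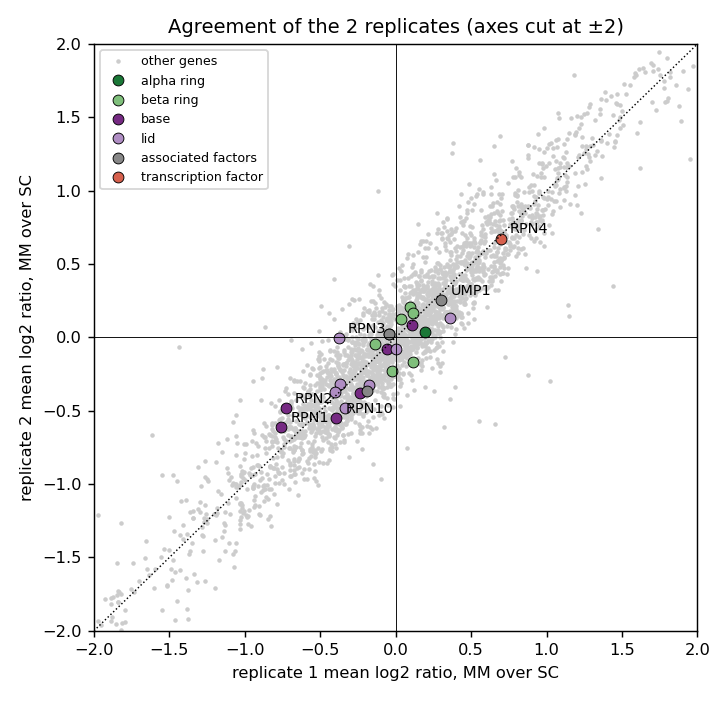
Mean log2 ratio of MM over SC in replicate 1 (horizontal axis) against replicate 2 (vertical axis), each a mean of 2 dye orientations; grey points are the genes outside the disagreeing rows, coloured points the 25 members measured on all 4 arrays, and genes beyond ±2 are not drawn. Members lie near the centre of the cloud, with RPN4 at 0.70 and 0.67 at the upper right and RPN1 at -0.76 and -0.61 at the lower left.

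The regulatory particle lay below the core on each array, by a varying amount. The median of the 13 regulatory particle genes minus that of the 8 core genes was -0.48 in replicate 1 where MM was in Cy5 and -0.31 where SC was. In replicate 2 the difference was -0.33 and -0.10. The gap was therefore narrower with SC in Cy5 in each replicate. PRE6 and PRE9 had values on the replicate 1 arrays only and are not in these core medians. With MM in Cy5, then SC in Cy5, PRE6 was at -0.41 and -0.72 and PRE9 at -0.054 and -0.29. Including them would lower the core median and narrow the gap on both arrays of replicate 1. Within the regulatory particle the base had the lower median with MM in Cy5 (-0.37 and -0.43, lid -0.33 and -0.28), and the lid with SC in Cy5 (-0.31 and -0.20, base -0.30 and -0.088). In SC in Cy5 of replicate 2 the base median was close to that of the core, at -0.081. These medians are descriptions of lists chosen with results of these data known, and no test was made of them. Median log2 ratios of the 2994 genes outside the disagreeing rows lay between -0.070 and 0.029 on the 4 arrays.

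Associated factors had means to both sides of 0, and limma called 0 of the 3 tested, with 0 past the threshold before adjustment. UMP1 (YBR173C), a chaperone of core assembly, was at 0.38 and 0.23 in replicate 1 (MM in Cy5, then SC in Cy5) and at 0.23 and 0.27 in replicate 2. All 4 arrays were above 0, with a mean of 0.28 ± 0.035 (SD, n = 2, limma adjusted p 0.107, and 0.0365 with the disagreeing rows left out of the fit, in a range of 0.0240 to 0.271 over 11 settings). UBP6 (YFR010W), a deubiquitinating enzyme bound to the base, was as far below 0, at -0.28 ± 0.12, with all 4 arrays below 0. RPN14 (YGL004C), a chaperone of base assembly, was at -0.0090 ± 0.048.

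Members measured on fewer arrays were not tested. ECM29 (YHL030W), which tethers the core to the regulatory particle, was at -0.79 (MM in Cy5) and -0.56 (SC in Cy5) in replicate 1. BLM10 (YFL007W), an alternative activator of the core, was at -0.66 and -0.34. On both arrays these genes lay between RPN1 and RPN10. The alpha subunit genes PRE6 (YOL038W, alpha4) and PRE9 (YGR135W, alpha3) were at -0.41 and -0.72 and at -0.054 and -0.29 on the same arrays, so that PRE6 lay below the range of the 8 tested core genes. HUL5 (YGL141W), a ubiquitin chain-extending ligase, had 1 value, 0.61 with MM in Cy5 of replicate 1. PRE5 (YMR314W, alpha6) had none.

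The dye swap shows how much of these small differences moved with the label. Over the 25 members, 0 had a called dye term by limma, with or without the replicate number as a block, where 0.0266% and 0.691% of all 3765 genes were called. The difference between orientations (MM in Cy5 minus SC in Cy5) was nevertheless larger than the mean log2 ratio in several members. It was widest for RPN2, at -0.68, where the mean over the arrays with MM in Cy5 was -0.95 and that with SC in Cy5 was -0.26. In RPN1 these means were -0.95 and -0.43. RPN4 was at 0.62 and 0.75 and so moved little with the dye. Of 25 members, 5 (20.0%) were above 0 on both arrays of one orientation and below 0 on both of the other, against 5.34% of all tested genes. The 5.34% includes the disagreeing rows. Signs also turn more readily near 0, and the median size of change was 0.19 for the members and 0.37 for all tested genes. These shares therefore do not compare the size of a dye effect. Across the 25 members r between the orientations was 0.646, and 0.545 without RPN4, while r between the replicates was 0.881 and 0.837. Over the genes outside the disagreeing rows r was 0.921 between orientations and 0.959 between replicates. Between the 2 arrays of replicate 1 the members' r was 0.810, and between those of replicate 2 only 0.357. Outside the disagreeing rows these were 0.924 and 0.854. Such r also depends on the range of values, which was narrower for the members.

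**Figure D3:**
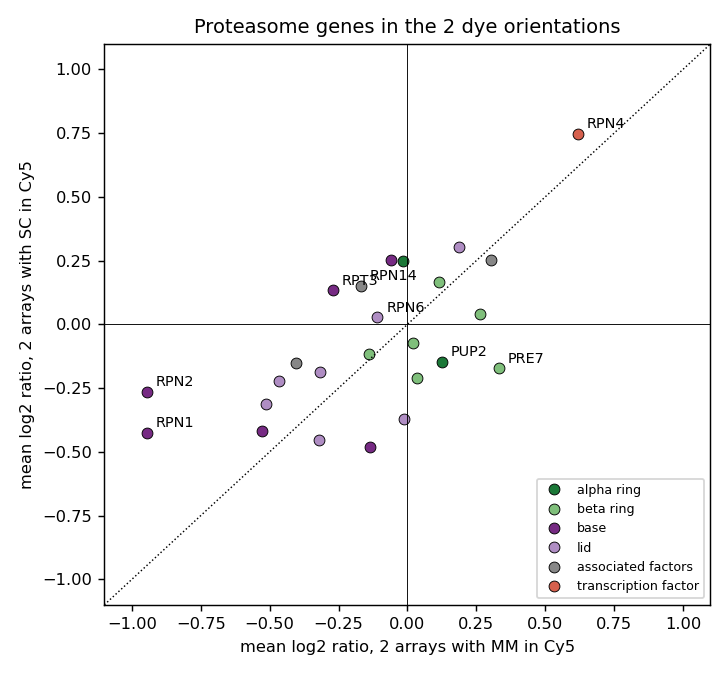
Mean log2 ratio of MM over SC on the 2 arrays with MM in Cy5 (horizontal axis) against the 2 arrays with SC in Cy5 (vertical axis) for the 25 members measured on all 4 arrays, coloured by group; the dotted line marks equal values. RPN2 lies farthest from the line (-0.95 against -0.26), and PRE7, PUP2, RPT3, RPN14 and RPN6 fall in quadrants where the orientations have opposite signs.

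Among other genes of the ubiquitin-proteasome system, changes above 2-fold did occur. Of a list of 63, 22 lie in the disagreeing rows, and 30 of the other 41 had values on all 4 arrays. Of these 30, 7 were called higher in MM and 4 lower, beside the 19.9% and 20.4% of genes called outside the disagreeing rows. A change of at least 2-fold was seen in 4, beside 15.3% of genes outside those rows. The median size of change of the 30 was 0.41, near the 0.39 of all genes outside those rows.

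The listed conjugating enzymes (E2), which carry activated ubiquitin, had means above 0 in 8 of 8 tested genes. Their median was 0.35, and 3 were called higher. Of the 2994 genes outside the disagreeing rows, 1448 had a mean above 0 and 19.9% were called higher. UBC5 (YDR059C), an E2 for short-lived and damaged proteins, was at 2.11 and 2.21 in replicate 1 (MM in Cy5, then SC in Cy5) and at 2.07 and 2.19 in replicate 2. The 4 values were close together, and the mean of 2.15 ± 0.025 (SD, n = 2) was a 4.43-fold higher level in MM (limma adjusted p 0.00864). Its near-identical paralog UBC4 (YBR082C) was at 0.29 ± 0.27, and since spots of whole ORFs can bind cDNA of a close paralog, the split between these genes is uncertain. UBC8 (YEL012W), named after its values were seen, was at 1.48.

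The listed ligases (E3, which choose the substrate, and E4) had means below 0 in 5 of 5 tested genes. Their median was -0.49, and 2 were called lower. Of the 2994 genes outside the disagreeing rows, 1546 had a mean below 0 and 20.4% were called lower. The 3 listed ligase genes with values on fewer arrays, which were not tested, lay above 0 on every array that measured them: TOM1 (YDR457W) at 0.42 to 0.62 on 3 arrays, HRD1 (YOL013C) at 0.045 to 0.56 on 3, and SSM4 (YIL030C) at 0.022 and 0.25 on 2. The list does not hold every ligase gene, and the member HUL5, a chain-extending ligase outside it, was at 0.61 on its 1 array. UBR1 (YGR184C), the ligase of the N-degron pathway, was at -1.74 and -1.36 in replicate 1 and at -1.73 and -1.26 in replicate 2. Every array was below -1, with the arrays of MM in Cy5 lower, and the mean was -1.52 ± 0.039 (SD, n = 2, limma adjusted p 0.00977), a 2.88-fold higher level in SC.

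Deubiquitinating enzymes moved in opposite directions, with 2 of 4 tested genes called higher and 1 lower. Outside the disagreeing rows 19.9% of genes were called higher and 20.4% lower. UBP15 (YMR304W) rose to 1.98 ± 0.11, a 3.94-fold higher level in MM (limma adjusted p 0.00864), while UBP3 (YER151C), known for its part in the turnover of ribosomes, fell to -0.58 ± 0.0068 (limma adjusted p 0.0293, n = 2). Among the shuttle factors and the partners of Cdc48, the ATPase that extracts ubiquitinated proteins, DSK2 (YMR276W) was called higher, at 0.76 ± 0.10, and NPL4 (YBR170C) lower, at -0.51 ± 0.052 (limma adjusted p 0.0230 and 0.0382), and 4 were not called. Among assembly factors NAS2 (YIL007C), a chaperone of the base, was called higher, at 0.64 ± 0.098 (limma adjusted p 0.0289), and 4 were not called. The difference between dye orientations (MM in Cy5 minus SC in Cy5), which these SDs leave out, was -0.53 for UBP3, -0.42 for NPL4 and 0.50 for DSK2. For UBP15 it was -0.36 and for NAS2 0.12. Without single arrays NPL4 was called in 1 of 4 fits, DSK2 and UBP3 in 2 of 4 and NAS2 in 3 of 4. RPL40A (YIL148W), which encodes ubiquitin fused to a ribosomal protein, was at -0.047 ± 0.065. Of the factors known to activate RPN4, only HSF1 (YGL073W) had values on all 4 arrays outside the disagreeing rows, at 0.072 ± 0.16 (limma adjusted p 0.638).

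**Figure D4:**
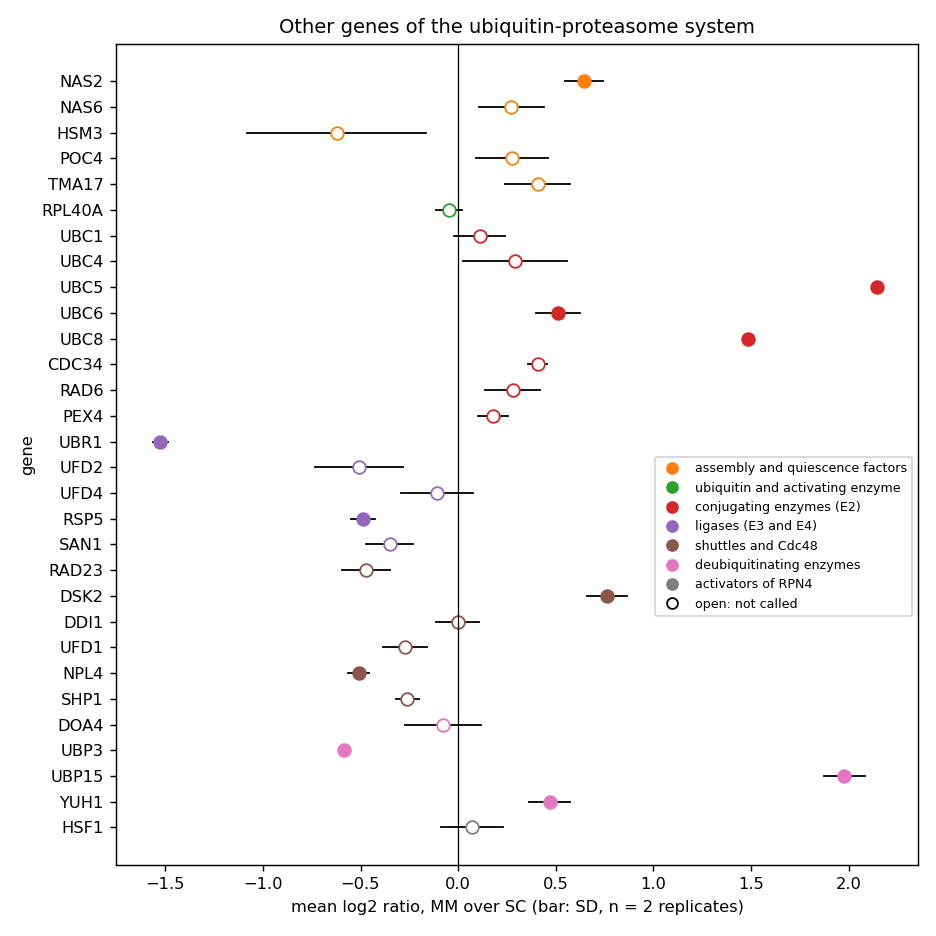
Mean log2 ratio of MM over SC (horizontal axis) ± SD (n = 2 replicates, bars) of the 30 listed genes outside the disagreeing rows with values on all 4 arrays (vertical axis), coloured by list, with filled points for genes called by limma. UBC5 (2.15), UBP15 (1.98) and UBC8 (1.48) lie far to the right and UBR1 (-1.52) far to the left.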

How the data were processed

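RNA of 4 arrays, each with both media, was measured as replicates 1 and 2 with dye swaps (numbers per the labels; biological by the series' design text). The authors scanned the arrays with a GenePix scanner, subtracted background, normalized mean by mean over well measured spots (signal over 3 SD of the background pixels) and deposited these log2 ratios; other spots are blank. A genome build is not given in the sources used here, so RefSeq assembly R64 gave symbols only: 5801 of 6301 ORFs and 31 of 31 members matched. The scale was taken as log2 and the direction as MM over SC.

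The dye orientations of a replicate number were averaged, and complete genes (a value on each of the 4 arrays) were tested by moderated statistics in limma (version 3.58.1, R 4.3.3), as a mean against 0, two-sided, with Benjamini-Hochberg adjustment over 3765 genes. The BAGEL program of the study was not used. The dye term came from a limma fit of the 4 arrays. The methods state only separate reverse transcriptions, so the p-values measure the spread between these 2 replicates, which may be partly technical. Members and lists were chosen with earlier results of these data known. A rule named RPN4, the called or otherwise most changed member of each group and the members at either extreme. It also named members with the widest difference by dye or replicate and those on fewer than 4 arrays. Of each other list it named the most changed called gene in each direction. The other tested members, and UBC4, UBC8, RPL40A, HSF1, TOM1, HRD1 and SSM4, are given outside this rule. Scripts were tested on simulated data. Alternatives covered scaling, filtering, moderation, the replicate block and omission of rows or single arrays. A planned search for promoter motifs was not run, as no promoter sequence was used here.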

Additional observations from a re-analysis of the deposited data

Results flagged for a closer look

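In 5 members the arrays of one dye orientation were on one side of 0 and those of the other orientation on the opposite side. The difference (MM in Cy5 minus SC in Cy5, log2) was 0.50 for PRE7, 0.27 for PUP2, -0.41 for RPT3, -0.32 for RPN14 and -0.14 for RPN6. None of the 5 had a called dye term by limma (adjusted p 0.568 to 0.815, and 0.258 to 0.792 with the replicate block). The rule that picked these 5 requires the same direction in both replicates, so that agreement is no further evidence of a dye difference. Their means over both orientations lay between -0.068 and 0.080. A part of the probe or the dye in these differences was not tested.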

How the results depend on the processing

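Main counts were 1 member higher and 2 lower, and among other ubiquitin-proteasome genes 7 higher and 4 lower, beside 1263 calls over 3765 genes. With 4 arrays and the replicate block these were 2 and 9, and 11 and 9, beside 1979 calls over 3765 genes. With arrays as independent and no block they were 2 and 6, with 7 other genes lower, beside 1744 calls over 3765 genes. With at least 3 arrays they were 1 and 6, with 7 other genes lower, beside 1986 calls over 4570 genes. With the disagreeing rows left out they were 2 and 8, and 13 and 9, beside 1920 calls over 2994 genes. Calls over all genes thus rose in each of these settings too. Without moderation limma called 0 genes (877 of 3765 and 3 of 25 members at an unadjusted p at or under 0.05), with RPN4 still at 0.68. Leaving out single arrays gave 0 to 1 member higher and 0 to 2 lower, 3 to 5 other genes higher and 1 to 3 lower, and 570 to 1026 calls over all genes, with the fewest without MM in Cy5 of replicate 2. RPN4 then lay between 0.64 and 0.72 and the members' median between -0.095 and -0.063. Same-numbered arrays did not deviate together outside the disagreeing rows (r = 0.044 across genes, against 0.910 inside them), and the consensus correlation of the block was -0.24. Over 32 single genes and all alternatives, 287 values kept their direction and side of the threshold, 26 became called, 25 lost their call (RPN4 under no moderation and without MM in Cy5 of replicate 2 among them) and 14 changed sign. The sign changed for 10 uncalled members, only where 1 array was left out, and they stayed uncalled. Their ranges were -0.049 to 0.21 for PRE7, -0.17 to 0.035 for RPT3, -0.14 to 0.12 for RPN14, -0.084 to 0.0012 for RPN6, -0.095 to 0.073 for PUP2, -0.19 to 0.015 for PRE3, -0.0033 to 0.24 for SCL1, -0.061 to 0.0087 for PRE4, -0.039 to 0.23 for RPT6 and -0.39 to 0.0082 for RPN3. No called direction turned. With 1 array left out, the mean of its replicate came from a single dye orientation, so a dye difference was not averaged out there. The cause of the sign changes was not tested.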
